A study of Mus musculus with 5 samples.

Results

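Promoter regions here are stretches of open chromatin that lie at, or inside the span of, the start sites of a gene in nuclei of the mouse hippocampus. The peaks of 5 libraries were merged wherever they overlapped by at least 1 bp, which gave 220645 regions. A merged region was taken as a promoter region when it overlapped the position that the deposited files give for a gene, widened by 1 kb on both sides. This rule chose 42260 regions (19.2%) and uses the positions of genes and peaks, with no cut-site count, RNA or class value. The peaks were called from the cut sites, so a promoter with no peak in any library is no member. Each library came from Multiome nuclei, in which RNA molecules and transposase cut sites (places where the enzyme cut accessible DNA) are read from the same nucleus. There was 1 library each of the genotypes Wild type, 5xFAD, 5xFAD with MAGL-KO specific to astrocytes, 5xFAD with MAGL-KO specific to neurons, and 5xFAD with global MAGL-KO. MAGL, encoded by Mgll, is the enzyme that breaks down the endocannabinoid 2-arachidonoylglycerol. 5xFAD mice carry human transgenes, APP included, with familial Alzheimer mutations under the neuronal Thy1 promoter, and all MAGL-KO groups carry them too. Age, the number of pooled animals, the Cre drivers and the deleted part of Mgll are not given in the sources used here. Values of all libraries follow the order of genotypes above.

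Nucleosomes are displaced over the start of a gene that can be transcribed, so the promoter is usually the most accessible stretch of a gene. Promoters rich in the dinucleotide CpG are typical of genes used in most cells, and CpG-poor promoters, often with a TATA box, are typical of genes used in few cell types. Accessibility at a promoter shows that factors can reach it and does not measure how much RNA is made.

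Because the libraries carry knockout labels, Mgll RNA was read first. Over the nuclei used, Mgll stood at 74.3, 77.7, 92.5, 92.6 and 80.4 CPM of UMIs (unique RNA molecules), where CPM is a count scaled to a common total per library. In excitatory neurons it stood at 70.1, 73.7, 92.8, 96.3 and 82.4 CPM of UMIs, and in astrocytes at 485, 349, 465, 401 and 414. No knockout label came with a lower Mgll value than the 5xFAD library, so the libraries are named below by their knockout labels only, also wherever a direction is given. Tags outside the deleted part of the gene check nothing. The Mgll promoter region (chr6:88724136-88725011, GRCm38) held 29.8, 30.5, 32.6, 30.0 and 28.2 CPM of cut sites, and an open promoter does not test a deletion elsewhere in the gene.

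The libraries held 83726719 to 105867030 cut sites in peaks and 4050 to 7498 barcodes, of which any pair of libraries shared 29 to 63. After filters, 3917 to 7032 nuclei per library were used. Nuclei were assigned to classes from RNA alone, and a class name is short for clusters like that class. Excitatory neurons numbered 2383 to 4588 nuclei per library, inhibitory neurons 529 to 882, astrocytes 29 to 70, microglia 43 to 122, oligodendrocytes 214 to 309 and oligodendrocyte precursors 103 to 149. The 7 dentate granule neuron markers had a median RNA of 67.8 CPM of UMIs, and the 5 choroid plexus markers 1.37. These are medians of unlike gene sets and do not test the labelled tissue. A class of 31 to 117 vascular and fibroblast nuclei also entered the fits. Of its 10 marker promoters only 3 could be tested, and these were not called. Another 4 were under the count filter, 2 genes had no member near an annotated 5′ end and 1 was not listed in all 5 libraries. The same neuronal regions led this class as led the excitatory class, so it is not described further. It had 3478 members called higher by the test given below, beside 34.8% of all regions tested, and 74 called lower, beside 0.819%.

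The following promoters show how differently composed the members were. Each line is the 250 bases before the RefSeq transcription start (GRCm38.p6), 5′ to 3′ on the gene's strand, with each CpG in capitals. Slc39a12 (a zinc transporter, chr2:14388148-14388397, plus strand) and Mlc1 (an astrocyte membrane protein, chr15:88978554-88978803, minus strand) led the astrocyte regions. Mobp (a myelin protein, chr9:120149492-120149741, plus strand) was among the leaders of the oligodendrocyte regions. Gjc3 (a connexin, chr5:137963099-137963348, minus strand) and Vwc2 (chr11:11113766-11114015, plus strand) were among the leaders of the precursor regions. Slc17a7 (vesicular glutamate transporter, chr7:45163671-45163920, plus strand) and Gad2 (GABA synthesis, chr2:22622077-22622326, plus strand) mark excitatory and inhibitory neurons. Fos (immediate early gene, chr12:85473640-85473889, plus strand) and Mgll (chr6:88724162-88724411, plus strand) were open in the 6 classes described.
Slc39a12: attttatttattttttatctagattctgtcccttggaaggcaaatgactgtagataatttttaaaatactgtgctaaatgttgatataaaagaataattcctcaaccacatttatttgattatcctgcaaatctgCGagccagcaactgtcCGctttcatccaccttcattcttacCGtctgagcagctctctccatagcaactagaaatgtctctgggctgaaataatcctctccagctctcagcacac
Mlc1: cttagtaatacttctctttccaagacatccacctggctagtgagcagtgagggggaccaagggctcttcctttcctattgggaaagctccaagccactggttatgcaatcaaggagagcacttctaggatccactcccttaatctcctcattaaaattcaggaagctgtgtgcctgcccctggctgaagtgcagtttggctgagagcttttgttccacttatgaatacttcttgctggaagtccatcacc
Mobp: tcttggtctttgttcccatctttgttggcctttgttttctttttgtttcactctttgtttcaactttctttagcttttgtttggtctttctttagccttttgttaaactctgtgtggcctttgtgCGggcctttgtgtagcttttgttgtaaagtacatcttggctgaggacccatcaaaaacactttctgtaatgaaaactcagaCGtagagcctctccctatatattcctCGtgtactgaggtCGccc
Gjc3: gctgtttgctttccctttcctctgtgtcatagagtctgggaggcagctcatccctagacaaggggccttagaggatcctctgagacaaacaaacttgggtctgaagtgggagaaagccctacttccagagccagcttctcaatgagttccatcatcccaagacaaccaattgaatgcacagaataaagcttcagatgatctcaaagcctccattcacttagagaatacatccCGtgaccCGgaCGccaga
Vwc2: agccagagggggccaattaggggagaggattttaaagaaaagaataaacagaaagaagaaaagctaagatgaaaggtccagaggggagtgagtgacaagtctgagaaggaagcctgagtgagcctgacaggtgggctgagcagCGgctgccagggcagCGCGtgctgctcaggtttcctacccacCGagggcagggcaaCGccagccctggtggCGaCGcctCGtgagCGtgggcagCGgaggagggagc
Slc17a7: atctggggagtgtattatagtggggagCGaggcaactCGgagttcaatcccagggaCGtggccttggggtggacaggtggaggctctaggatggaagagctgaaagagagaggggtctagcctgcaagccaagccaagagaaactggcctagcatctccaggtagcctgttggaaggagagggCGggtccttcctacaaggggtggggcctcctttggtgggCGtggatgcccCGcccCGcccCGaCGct
Gad2: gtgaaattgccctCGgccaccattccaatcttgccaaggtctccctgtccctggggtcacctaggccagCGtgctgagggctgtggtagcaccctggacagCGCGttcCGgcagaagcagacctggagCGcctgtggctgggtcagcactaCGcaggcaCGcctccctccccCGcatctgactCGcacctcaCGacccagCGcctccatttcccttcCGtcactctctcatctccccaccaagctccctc
Fos: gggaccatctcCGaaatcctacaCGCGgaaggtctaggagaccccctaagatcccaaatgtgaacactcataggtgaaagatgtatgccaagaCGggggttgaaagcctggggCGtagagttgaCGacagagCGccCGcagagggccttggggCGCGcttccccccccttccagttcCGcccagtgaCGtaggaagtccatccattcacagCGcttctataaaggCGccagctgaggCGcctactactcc
Mgll: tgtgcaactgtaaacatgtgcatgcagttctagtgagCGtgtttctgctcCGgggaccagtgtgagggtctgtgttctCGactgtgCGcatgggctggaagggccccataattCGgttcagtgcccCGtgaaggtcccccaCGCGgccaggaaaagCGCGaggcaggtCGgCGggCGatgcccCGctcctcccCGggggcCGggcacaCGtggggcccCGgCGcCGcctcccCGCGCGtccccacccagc
In these stretches the script counted 3 CpG for Slc39a12, 0 for Mlc1, 4 for Mobp, 3 for Gjc3, 10 for Vwc2, 9 for Slc17a7, 13 for Gad2, 15 for Fos and 23 for Mgll. Of the leaders of glial regions shown, Slc39a12, Mlc1, Mobp and Gjc3 thus held at most 4 CpG and Vwc2 10, and Fos and Mgll, open in the 6 classes, at least 15. The TATA letters occurred in Slc39a12 and Fos and the CRE letters in Fos, with the letters given in the next paragraph. Thy1, described below, has no entry in the sequence table.

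Accessibility went with base composition over all promoters that the RefSeq table holds. Of 32817 windows of 300 bases, 9203 were CpG-rich (GC of at least 55% and an observed over expected CpG ratio of at least 0.65). Of these CpG-rich windows, 8411 (91.4%) lay in a promoter region listed in all 5 libraries, with a median height of 31.4 CPM. Of the other 23614 windows, 5721 (24.2%) did, with a median height of 14.1. Motif letters were searched on both strands, and a match describes letters, not a bound site. The GC box (GGGCGG, bound by SP and KLF factors) occurred in 35.6% of all windows, in 64.8% of those in a region listed in all 5 libraries and in 11.1% of the 15490 windows in no region. The ETS letters (CCGGAAG) occurred in 8.86%, 16.8% and 2.62%, the CRE letters (TGACGT) in 7.51%, 11.7% and 4.18%, and the NRF1 letters (GCATGCG) in 3.57%, 6.41% and 1.36%. All 4 of these sets of letters contain a CpG, so their shares are not independent of the CpG content of the windows. The TATA letters (TATAAA) went the other way, with 13.6%, 6.36% and 20.4%, as did the SOX letters (AACAATG) with 3.78%, 1.80% and 5.46% and the AP-1 letters (TGANTCA) with 7.81%, 4.59% and 10.2%. The CCAAT box (CCAAT, bound by NFY) occurred in 37.4%, 37.6% and 38.1% of the windows.

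Only some members lay at a start site. Of the 42260 regions, 23622 (55.9%) lay within 1 kb of an annotated 5′ end in GENCODE vM21 and are called start-site regions below. The other 18638 (44.1%) lay elsewhere inside a gene position and are called intragenic regions. This comes from wide positions: 61.1% of the gene positions were 1 bp wide, but 2221 genes (6.88%) had a position over 10000 bp, and these held 18361 of the intragenic regions. The position of Fgfr2, a fibroblast growth factor receptor, spanned 2857160 bp and held 413 regions, and that of Dlg2, a postsynaptic scaffold gene, held 198. In turn, 7037 regions outside the rule also lay within 1 kb of an annotated 5′ end.

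Start-site regions were taller and more often shared than all others. Of the start-site regions, 79.6% were listed in all 5 libraries, against 54.7% of intragenic regions and 56.4% of regions outside the rule. Among regions listed in all 5 libraries the median height was 15.6 CPM for start-site regions, 3.67 for intragenic regions and 3.45 outside the rule. Promoter regions held 46.5%, 47.5%, 46.7%, 45.6% and 44.7% of the cut sites in peaks. Start-site regions alone held 38.9% to 41.8% from 11.7% to 12.8% of the covered length, a density 3.20 to 3.4 times the mean, whereas intragenic regions had 0.687 to 0.711 times the mean. The 95% Wilson intervals of the promoter shares did not overlap between libraries, but they cover counting error only, and 1 library per group gives no measure of the spread between animals.

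The contrast was sharp in distance. The 20388 regions that covered an annotated 5′ end had a median of 17.6 CPM and 83% were listed in all 5 libraries. With a gap of 1 to under 250 bp the median was 4.82 and the share 59.2%, and with a gap of 750 to under 1000 bp they were 4.88 and 54.2%. From 20000 bp on they were 3.10 and 56.5%. At the edge of the rule, regions 750 to under 1000 bp from a gene position (members) had a median of 5.47 and a share of 57.0%, and regions in the next bin of equal width, from 1000 bp (not members), had 5.13 and 53.0%.

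**Figure D1:**
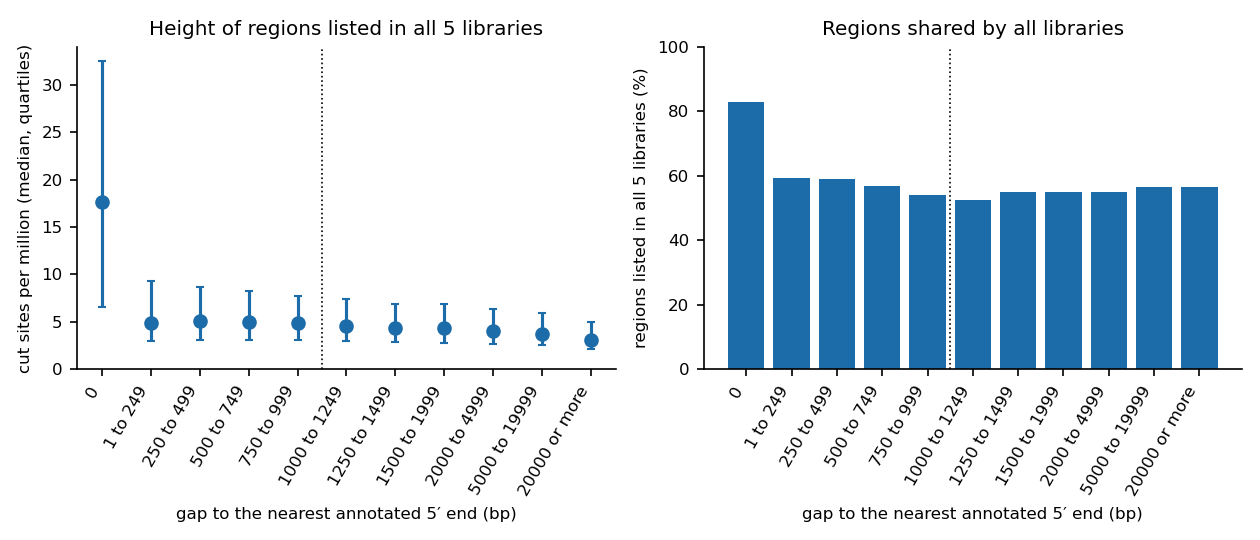
Left, median (point) and quartiles (bars) of the height of regions listed in all 5 libraries, in CPM, by the gap in bp between region and nearest annotated 5′ end; right, the share of regions listed in all 5 libraries. The dotted line marks a gap of 1 kb: regions covering a 5′ end stood at 17.6 and 83%, and all bins with a gap stood between 3.10 and 5.09 CPM.

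Of 32272 genes with a position, 20490 (63.5%, Clopper-Pearson interval 63.0% to 64.0%) had a promoter region, and 71.5% of protein-coding genes did. The share followed RNA. Of protein-coding genes without an RNA molecule in these nuclei 7.50% had a region, of those at over 1 to 10 CPM of UMIs 92.0%, and of those over 100 CPM of UMIs 99.7%. Across genes with at least 10 UMIs the height summed over a gene's regions had a Spearman correlation with RNA of 0.44 to 0.46 in the 5 libraries. This is across 13549 to 13653 genes, which are not independent replicates and share library and depth.

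Housekeeping and synaptic gene groups had open promoters throughout. All 24 nuclear-encoded oxidative phosphorylation genes, 24 cytosolic ribosomal protein genes, 20 heat shock and chaperone genes, 18 immediate early genes and 29 glutamatergic synapse genes had a promoter region. The median RNA of the immediate early genes was 8.88 CPM of UMIs, and the tallest regions of these genes had a median of 39.2 CPM. Replication-dependent histone genes had a region in 58 of 66 cases at a median RNA of 0.0870 CPM of UMIs. How well the RNA counts capture histone transcripts was not tested, so the low value is not read as little RNA made. Zinc finger genes named Zfp had one in 359 of 401 cases and potassium channel genes in 86 of 99.

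Gene families of other tissues were mostly closed. Of 1094 olfactory receptor genes 109 (9.96%) had a promoter region, of 329 vomeronasal receptor genes 10 (3.04%), of 64 defensin genes 5 (7.81%), of 113 keratin genes 33 (29.2%) and of 29 Hox genes 12 (41.4%). Where olfactory receptor genes did have a region, its median height was 1.57 CPM, against 17.9 over all genes. Microglial lists lay between: 21 of 26 disease-associated, 13 of 17 homeostatic and 15 of 18 interferon response genes had a region, though microglia made up few of the nuclei.

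**Figure D2:**
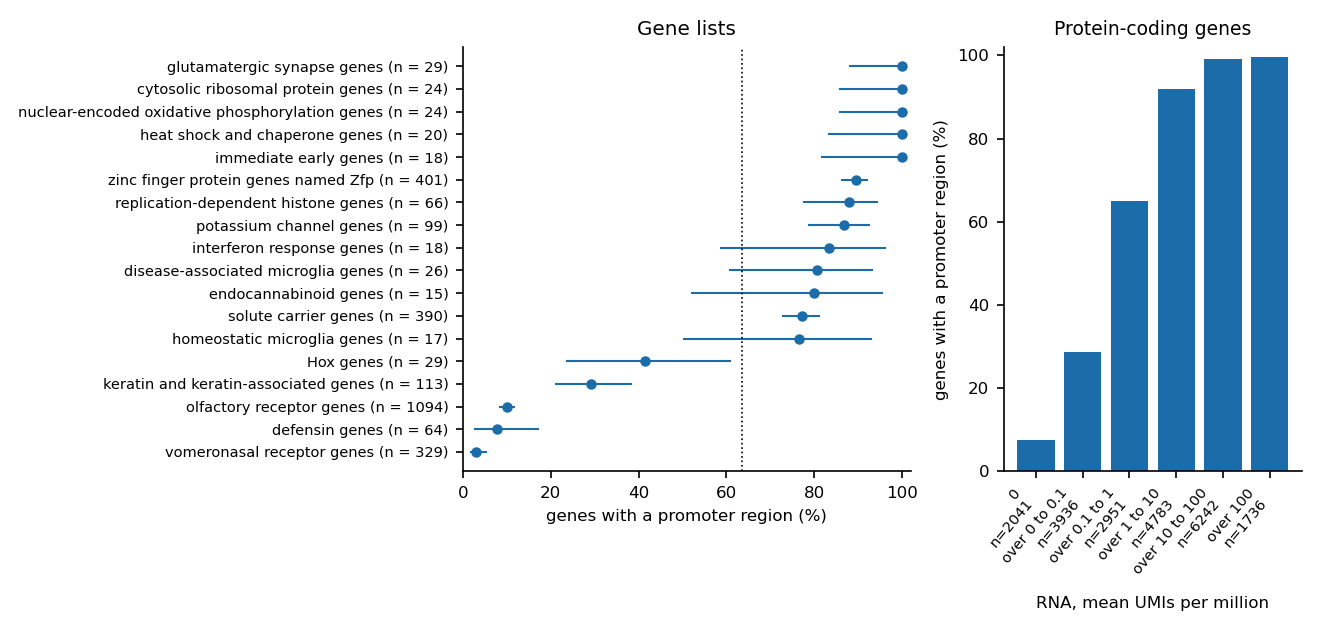
Left, the percent of genes of each list with a promoter region (points) with 95% Clopper-Pearson intervals (lines, counting error only) and the share of all genes, 63.5%, as a dotted line. Right, the percent of protein-coding genes with a promoter region by mean RNA in CPM of UMIs, from 7.50% at 0 to 99.7% above 100.

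Of 15 endocannabinoid genes, 12 had a promoter region. The receptors Cnr2, Gpr55 and Trpv1, at 0.0908, 0.325 and 0.151 CPM of UMIs, had none. The synthesis gene Dagla held 28.9, 29.7, 27.9, 28.3 and 27.6 CPM, and the hydrolase genes Abhd6 and Abhd12 held 16.4 to 19.7 and 40.1 to 41.8. The receptor gene Cnr1 held 15.3, 17.0, 16.8, 16.1 and 16.5. The tallest of the list was Napepld, whose enzyme releases anandamide from its precursor, with 62.4 to 68.0. In each of these genes the 5 libraries lay close together.

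RNA and promoter regions as drawn by the rule could part in both directions. The 5 genes with most RNA and no promoter region were Naaladl2 (253 CPM of UMIs), Mical3 (205), Pdzd2 (172), Nrg3os (156) and Chst9 (138). They had no region at the deposited gene position. Since 7037 regions outside the rule lay within 1 kb of an annotated 5′ end, an open start site elsewhere in these genes is possible and was not read. The 5 gene features with the tallest promoter region and under 1 CPM of UMIs were Cdca2, Sept2, Mylpf, Fam72a and Cdca3, with mean heights from 90.9 to 109 CPM. Each of these 5 shared its region with a second gene (Kctd9, Hdlbp, Tbc1d10b, Srgap2 and Usp5 in that order). The Sept2 value, 0, is that of 1 gene feature, and 38 symbols were used by more than 1 feature. Whether another feature named Sept2 held RNA was not read, so Sept2 is not taken as a gene without RNA. Start-site regions with genes on both strands numbered 3405 (14.4%), and cut sites there cannot be assigned to either gene.

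Among members with a gene that the naming rule admits, the tallest region was that of Thy1 (chr9:44042860-44043763), a surface glycoprotein of neurons, whose promoter also drives the 5xFAD transgenes. Regions of genes that the rule leaves out (provisional names, mitochondrial, X- and Y-linked genes) reached a mean of 870. The Thy1 region, singled out after its values were seen, held 23.8 CPM in the Wild type library (95% exact Poisson interval 22.8 to 24.8, counting error only, here and below). In the 5xFAD library it held 353 (348 to 357), and under the astrocyte, neuron and global knockout labels 441 (437 to 446), 440 (436 to 445) and 408 (404 to 413). All 4 libraries with the transgenes were thus 14.8 to 18.5 times the Wild type library. A second start-site region of Thy1 (chr9:44044156-44045018) was listed in 3 libraries, with 10.5 in Wild type, 149 in 5xFAD and 185 under the neuron knockout label. Another (chr9:44039508-44040551) stood at 3.56, 4.82, 6.75, 5.19 and 6.35, a range of at most 1.90 times Wild type. Cut sites from transgene copies and from the Thy1 gene itself cannot be told apart in these counts.

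The ratio to Wild type differed in size between classes, which was not tested. In excitatory neurons the tall Thy1 region held 24.3, 396, 487, 510 and 445 CPM, and in inhibitory neurons 23.6, 260, 333, 350 and 308. In oligodendrocytes it held 0.450, 2.69, 13.4, 2.53 and 8.92, from 1 to 20 cut sites per library. In microglia the values were 5.34, 10.4, 18.8, 3.93 and 13, from 2 to 16 cut sites, and their intervals overlapped. In astrocytes they were 19.5, 18.6, 52.8, 24.4 and 27.3, and in precursors 11.7, 19.2, 29.8, 31.4 and 19.6. In the vascular and fibroblast class they were 27.5, 183, 469, 298 and 342, from 22 to 528 cut sites per library. Thy1 RNA stood at 41.5, 164, 197, 255 and 174 CPM of UMIs over the nuclei used. Whether some of these UMIs came from the transgenes was not tested. The start-site region of App, the mouse counterpart of the APP transgene, that was listed in all 5 libraries (chr16:85173247-85174177) held 34.6, 36.8, 39.3, 37.7 and 36.2. Another start-site region of App (chr16:85171836-85172731) was listed only in the 5xFAD library (15.8) and under the neuron knockout label (15.1).

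**Figure D3:**
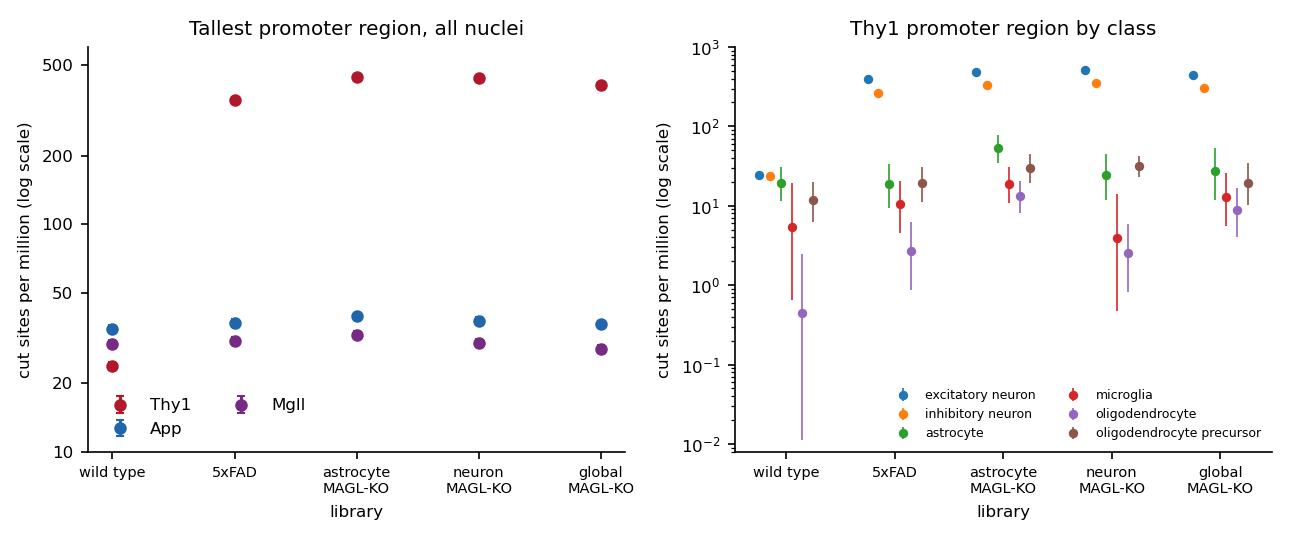
Left, CPM (log scale) in the tallest start-site region of Thy1, App and Mgll listed in all 5 libraries; right, the Thy1 region in 6 classes. Points are single libraries and lines 95% exact Poisson intervals; Thy1 stands at 23.8 in Wild type and at 353 to 441 in the 4 libraries with the transgenes, while App and Mgll stay between 28.2 and 39.3.

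Next in height among members with a gene that the rule admits were AC149090.1 on an unplaced scaffold (269, 278, 295, 342 and 280), AY036118 on chromosome 17 (216, 252, 195, 192 and 196), Khsrp, an RNA-binding protein gene (121 to 138), and Gsk3b, a kinase gene (117 to 132). The first 2 lie in sequence with near-identical copies, so their counts are uncertain.

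Apart from Thy1, few promoter regions differed between libraries by much. In excitatory neurons a region counted as past the fold at a log2 ratio of at least 0.5 either way, computed on CPM plus 5, with at least 100 cut sites over both libraries. Between 5xFAD and Wild type, 9 of 31245 promoter regions passed, beside 0.014% of all regions. For the astrocyte, neuron and global knockout labels against 5xFAD, 25 of 30004, 66 of 30797 and 37 of 31301 passed, beside 0.144%, 0.312% and 0.152% of all regions. The class was not made up alike in these libraries: cluster n12, one of its clusters with granule neuron markers, held 0.945%, 0.829%, 10.6%, 12.8% and 14.6% of its nuclei. Without that cluster, an alternative chosen after seeing the data, 9, 20, 33 and 22 members passed in the 4 comparisons, beside 0.0161%, 0.0862%, 0.102% and 0.0688% of all regions. With 1 library per group there is no test of these differences, and the last 3 comparisons share the 5xFAD library. Over all nuclei 4 of 31750, 21 of 30373, 39 of 31425 and 33 of 31658 passed, beside 0.0034%, 0.0863%, 0.163% and 0.0936% of all regions. In inhibitory neurons 122 of 22064, 161 of 21825, 209 of 22386 and 154 of 21572 passed, beside 0.876%, 1.14%, 1.6% and 1.35%. In oligodendrocytes 617 of 8538, 686 of 7664, 599 of 8196 and 708 of 6900 passed, beside 8.03%, 9.74%, 8.1% and 10.9%. The classes with fewer cut sites thus had the larger shares past the fold, among members as among all regions. The excitatory counts rest on the pseudocount: with 1 in place of 5 they were 353, 621, 927 and 613, beside 1.81%, 3.6%, 4.96% and 3.57% of all regions. Without the limit on unequal peak widths the counts were 18, 42, 89 and 57, beside 0.0397%, 0.178%, 0.364% and 0.196%.

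Among members with a gene that the naming rule admits, the lowest ratios of 5xFAD to Wild type were those of Ccng2, a cyclin gene, and Tex45, with log2 ratios of -0.63, past the fold, and -0.44, short of it. The Ccng2 region held 17.1, 9.32, 15.1, 16.3 and 12.5 CPM in excitatory neurons, so the 5xFAD library was the lowest of the 5. The Tex45 region held 4.88, 2.28, 4.36, 3.59 and 3.22. The highest ratios of the astrocyte knockout label to 5xFAD were those of 2 regions of Dynlt1b, a dynein light chain gene. The taller held 8.36, 11.1, 27.4, 15.3 and 15.0, so the library with that label was the highest, and its log2 ratio to 5xFAD was 1.01. In microglia the same region held 48.0, 45.5, 142, 98.3 and 88.0, with 35 cut sites in 5xFAD and 121 under the astrocyte label. Dynlt1b has near-identical copies, so its counts are uncertain.

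Hist4h4, a histone H4 gene, held 31.1, 34.2, 20.9, 19.2 and 21.7 CPM in excitatory neurons, with both libraries without a knockout label above all 3 with one. The zinc finger genes Zfp458, whose region is shared with F630042J09Rik (4.26, 4.61, 1.33, 1.75 and 1.66), and Zfp459 (8.10, 8.84, 5.18, 4.43 and 5.94), which lie close together on chromosome 13 in a cluster of similar genes, had the same order. Without cluster n12, which is also larger in the 3 libraries with a knockout label, Hist4h4 held 31.1, 34.2, 20.6, 19.3 and 21.6, and the order held for Zfp458 and Zfp459 too. A start-site region of Mtus2, a microtubule-associated protein gene, held 18.2, 23.0, 17.1, 14.1 and 15.9. It is shared with Gm15721 and is not the intragenic region of Mtus2 named further below. An intragenic region of Tmem267 held 3.01, 3.07, 8.76, 13.7 and 10.0, and its neighbour 4.60, 3.18, 6.35, 8.89 and 8.25. Without cluster n12 the first of these held 2.97, 3.01, 7.28, 8.61 and 9.03, and its log2 ratio of the neuron knockout label to 5xFAD was 0.76 in place of 1.21. Under the global knockout label the lowest ratios were those of Mthfsl and Btaf1, a regulator of TATA-binding protein. Mthfsl, whose region is shared with Gm10634, held 10.4, 10.4, 8.53, 11 and 3.69, and Btaf1 held 58.0, 70.1, 57.3, 68.0 and 38.6. For both the library with that label was the lowest of the 5. These orders describe 5 single libraries and have no replicate check.

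The medians of the gene lists lay close to those of all start-site regions. Over the start-site regions of the lists in excitatory neurons the medians of the log2 ratio lay between -0.12 and 0.09, beside 0.01, 0.00, -0.04 and -0.05 over all start-site regions in the 4 comparisons. The lowest was that of immediate early genes under the global knockout label against 5xFAD (-0.12 over 33 regions, from -0.28 to 0.09, with 0 past the fold). In the same comparison the 27 regions of ribosomal protein genes had a median of -0.10 and the 14 of endocannabinoid genes -0.06. Above 0 there lay 3 of 33 regions of immediate early genes, 1 of 27 of ribosomal protein, 3 of 20 of heat shock and 5 of 14 of endocannabinoid genes, beside 29.9% of all start-site regions. Of disease-associated microglia genes 8 of 19 did, of homeostatic microglia genes 8 of 17, of keratin genes 15 of 26, of olfactory receptor genes 33 of 68 and of Hox genes 5 of 7. Under the neuron knockout label 7 of 33 immediate early, 2 of 27 ribosomal protein, 2 of 20 heat shock, 16 of 27 keratin and 39 of 67 olfactory receptor regions did, beside 32.7%. The lists also differed in height: the tallest regions of these genes had medians of 39.2, 41.4, 63.5, 3.16 and 1.57 CPM in that order. Whether height accounts for these counts was not tested. In microglia, where few cut sites were at hand, 409 of 2369 members passed the fold between 5xFAD and Wild type, beside 17.7% of all regions. The microglia of these 2 libraries lie in different clusters: all 43 of Wild type were in cluster g8, and of the 82 of 5xFAD 29 were in g8 and 53 in g15. Within g8 alone, chosen after seeing the data, 78 of 367 members passed, beside 21% of all regions. The other 3 comparisons in microglia gave 622 of 4443 (beside 14.9%), 465 of 2962 (beside 16%) and 464 of 3389 (beside 14.2%). The members with the highest and the lowest ratios there, such as Nab2 with Nemp1, Eif4ebp2, Dnajb12, Foxn2, Pigyl, Taco1, Kpnb1 and Mpdu1, rested on 16 to 139 cut sites per library. Few tall regions were missing from a library: of 11861 to 11925 promoter regions with at least 10 CPM in the other 4 libraries, 6 to 16 were not listed in a given library (0.0503% to 0.135%), beside 1 to 4 of 6301 to 6531 such regions outside the rule (0.0156% to 0.0635%).

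Between classes the 5 libraries serve as replicates, and each class was compared with the mean of the 6 others on the log scale with edgeR's quasi-likelihood test, with the library as block and Benjamini-Hochberg adjustment over 40902 regions. A region was called at an adjusted p below 0.05 and a log2 fold of at least 1. A call higher is against a mean on the log scale, so the class need not hold the most cut sites. Slc39a12 was called higher in excitatory and inhibitory neurons at 1.74 and 1.33 CPM, against 21.8 in astrocytes, where it was also called. Adarb2 was called higher in inhibitory neurons at 11.4, against 11.5 in excitatory neurons and 21.9 in precursors. Of the 42260 members, 17457 passed the count filter, namely 14992 start-site and 2465 intragenic regions. Called higher were 3792 members in excitatory neurons (beside 37.6% of all regions tested), 3977 in inhibitory neurons (38.2%), 1917 in astrocytes (14.7%), 1511 in microglia (10.3%), 1949 in oligodendrocytes (15.3%) and 2889 in precursors (19.6%). As shares of the members tested these were 21.7%, 22.8%, 11%, 8.66%, 11.2% and 16.5%, each below the share of all regions tested. This order rests on the count filter and the class assignment. Without the filter the members' share was above that of all regions in astrocytes (7.89% against 6.44%), microglia (6.82% against 5.18%), oligodendrocytes (11.3% against 8.76%) and precursors (13.6% against 10.3%). In the neuron classes it stayed below without the filter (46.4% in both, against 71.5% and 70.6%). With each nucleus put in the class of its highest marker score it was above in microglia, oligodendrocytes and precursors, as given below. Called lower were 1058, 447, 1473, 4698, 2503 and 424 members in the same order, beside 5.69%, 2.73%, 10.6%, 35.4%, 17.4% and 4.07% of all regions tested. A region that passed the filter through 1 class had to differ. Over all 42260 members, whether they passed or not, 8.97%, 9.41%, 4.54%, 3.58%, 4.61% and 6.84% were called higher in the same order, beside 6.96%, 7.08%, 2.72%, 1.92%, 2.84% and 3.63% of all 220645 regions.

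The folds depended on the scaling, and cut sites fell into promoters to different degrees in the classes. Whether these different degrees account for the dependence on scaling was not tested. Start-site regions took 67.4% to 69.1% of cut sites in peaks in microglia, 62.0% to 64.3% in oligodendrocytes, 58.7% to 60.3% in astrocytes, 57.0% to 59.2% in precursors, 41.5% to 44.7% in inhibitory and 36.9% to 39.0% in excitatory neurons. The order of neuronal below glial classes held in all 5 libraries without overlap. These shares count only cut sites in listed peaks. Each library has 1 peak list for all classes, and excitatory neurons were most of its nuclei. How far the shares rest on that list was not tested. The median fitted log2 fold over all regions tested was 0.35, 0.49, -0.12, -0.90, -0.11 and 0.18 in the order of classes above, and over start-site regions it was -0.14, 0.01, -0.04, 0.05, 0.24 and 0.16. With median-of-ratios size factors the medians over all regions were 0.63, 0.62, -0.10, -1.06, -0.44 and 0.10, and called directions are relative to these. Over start-site regions they were 0.15, 0.14, -0.02, -0.10, -0.09 and 0.09, so the sign turned in excitatory neurons, microglia and oligodendrocytes, and it turned in these 3 classes with DESeq2 too. Of the members called in oligodendrocytes 43.8% were higher, against 30.8% with these size factors and 21.5% with DESeq2. In astrocytes the share was 56.5% (46.5% with DESeq2) and in precursors 87.2% (73.6% with DESeq2). With the highest marker score the counts of members called higher were 1366, 1166, 831, 1456, 7409 and 1533 (4.85%, 4.14%, 2.95%, 5.17%, 26.3% and 5.45%), beside 10.2%, 6.44%, 6.01%, 4.44%, 13.3% and 4.78% of all regions tested.

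Tall start-site regions were called between classes less often than lower ones. Of the 18812 start-site regions listed in all 5 libraries, 5832 (31.0%) were called higher in at least 1 of the 7 classes, beside 21.3% of intragenic regions and 19.3% of regions outside the rule, most of which were under the count filter. Of those that passed the filter the shares were 38.9%, 88.2% and 82.9%. For start-site regions the share was lower the taller the region. Start-site regions with a mean over classes of 5 to 10 CPM were called in 77.3% of cases, those of 10 to 20 in 64.3%, those of 20 to 40 in 26.6% and the 5027 of at least 40 in 7.12%. Regions outside the rule were called in 75.4%, 75.9%, 68.9% and 30.1% at the same heights, and intragenic regions in 80.4%, 86.7%, 77.3% and 57.9%. At 20 to 40 CPM the highest class stood at a median of 1.54 times the mean of classes for start-site regions and 2.23 times outside the rule. In sequence, 70.6% of the 9231 windows in tested members called in no class were CpG-rich, and 39.6% to 50.6% of the windows of the sets called higher in a class. ETS letters occurred in 23.2% of the windows called in no class and in 2.7% to 8.8% of those called higher in a class, with the highest share in microglia. PU.1 letters (GAGGAAG) occurred in 17.8% of the windows called higher in microglia, and in 11.5% to 14.4% of the other sets.

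**Figure D4:**
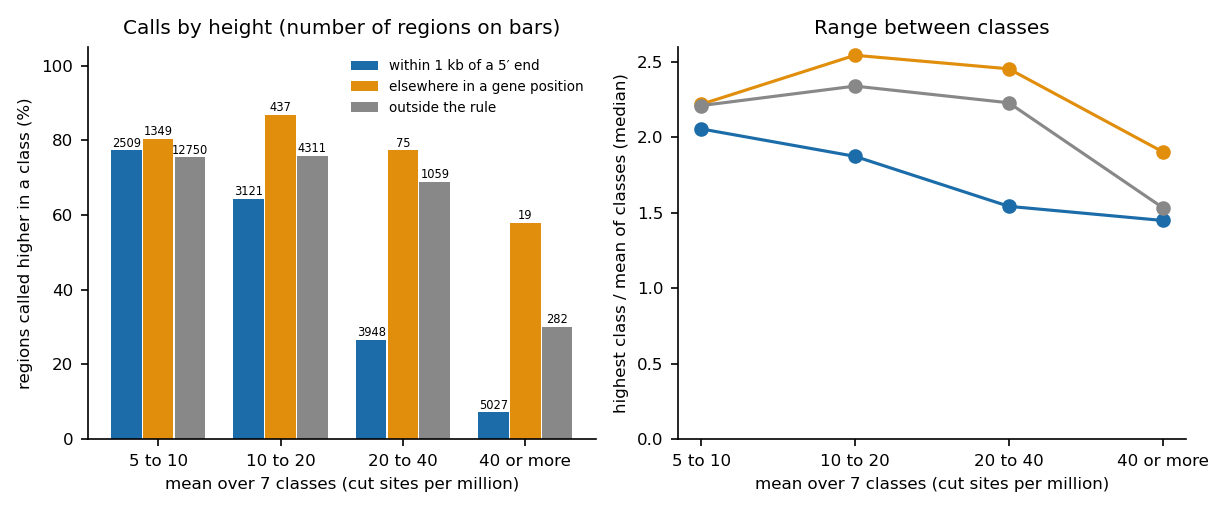
Left, the percent of regions listed in all 5 libraries that were called higher in at least 1 class, by mean height over 7 classes in CPM; numbers on bars count regions. Right, the median ratio of the highest class to the mean of classes; start-site regions (blue) fall from 77.3% to 7.12% with height, below regions outside the rule (grey) from 10 CPM on.

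Promoters of the fixed marker genes were read in the class each gene marks. For a gene with several start-site regions the one highest in that class was taken, which favours a call there. Called higher were 6 of 8 excitatory, 5 of 8 inhibitory, 7 of 9 astrocyte, 6 of 9 microglia, 6 of 9 oligodendrocyte and 5 of 8 precursor markers. Most of the rest had no start-site region listed in all 5 libraries, but of the excitatory markers 1 was called lower and 1 was under the count filter. Of the 7 granule neuron markers, read in excitatory neurons, 3 were called higher, 2 were not called and 2 were under the count filter. Of the 28 markers of these classes with a single start-site region, where no region was picked, 22 were called higher. Of the 18 with several, 13 were. Over all 23622 start-site regions 5.20% to 11.1% were called higher in a given one of these classes. The classes were named from the RNA of these same genes, so the counts are a description and no independent check. Mog, a myelin glycoprotein gene, held 80.0, 79.6, 65.5, 83 and 72.3 CPM in oligodendrocytes and 6.07 on average in the next class, the precursors. Gfap, an astrocyte filament gene, held 61.9, 120, 65.5, 68.3 and 75 in astrocytes and 28.9 in precursors. Csf1r, a receptor microglia need to survive, held 64.1, 59.8, 102.2, 80.6 and 58.6 in microglia, and P2ry12, a purine receptor, held 58.7, 74.1, 50.5, 47.2 and 65.2. Gpr17, a receptor of differentiating precursors, held 141, 157, 115, 124 and 136 in precursors and 39.5 in oligodendrocytes. None of these values was reached in any other class mean.

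Neuronal and some glial markers were less clear. Slc17a7 held 19.5 ± 1.68 (SD, n = 5) in excitatory and 12.3 in inhibitory neurons. Gad2 held 15.2 ± 2.89 in inhibitory and 1.95 in excitatory neurons, and the GABA transporter gene Slc32a1 25.2 ± 4.51 and 2.53. Pdgfra, a precursor receptor, held 21.0 ± 3.15 in precursors and 18.1 in oligodendrocytes and was not called. Sema5a, a granule neuron marker, was called higher in excitatory neurons at a log2 fold of 1.08, although it held 10.5 there, below the mean of the other classes (19.7) in all 5 libraries, with 43.3 in precursors. The call (adjusted p = 0.0487 by edgeR's quasi-likelihood test) is of a mean on the log scale, and was lost without any of the libraries other than 5xFAD (adjusted p from 0.0770 to 0.123) and with DESeq2 (0.67). With the highest marker score Slc17a7, Camk2a, Neurod6, Nrgn, Tbr1, Rasgrf2, Calb1, Adarb2, Slc1a2, Slc1a3 and Ranbp3l stayed under the fold of 1.

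**Figure D5:**
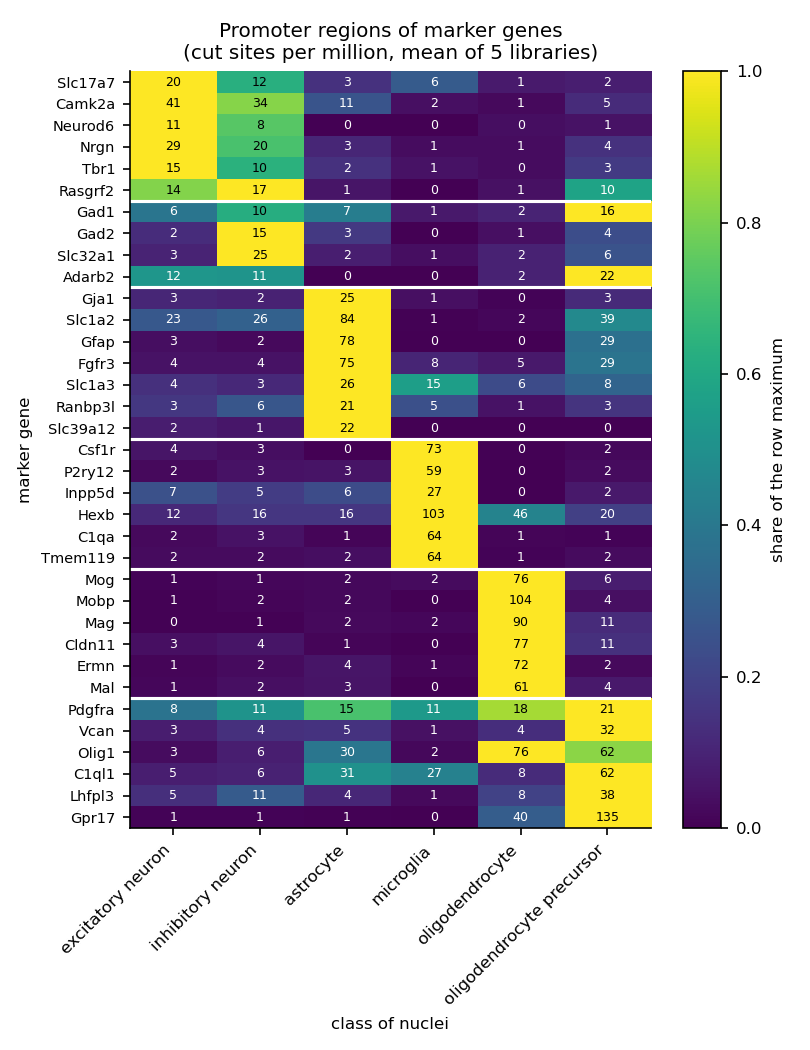
Mean CPM over 5 libraries (printed in each cell) of the promoter regions of marker genes, in rows grouped by the class they mark, in 6 classes (columns); color is the share of the row maximum. Mobp peaks at 104 in oligodendrocytes, while Slc17a7, at 19.5 in excitatory neurons, also holds 12.3 in inhibitory neurons.

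The regions with the largest folds were named by rule in each class, among those with a class mean of at least 10 CPM. A fitted fold against classes with few or no cut sites depends on the prior count, so class means are given. In oligodendrocytes Mobp held 104 ± 12.4, against 1.68 over the other classes, with a log2 fold of 7.10 (SE 0.22, adjusted p = 1.18e-122 by edgeR's quasi-likelihood test). Schip1, Ptprd and Shroom3 held 66.4 ± 7.23, 46.4 ± 10.0 and 68.0 ± 6.96 there, against 1.60, 0.66 and 1.11. Schip1 RNA was lower in oligodendrocytes (545 CPM of UMIs) than over the other classes (765), whereas Mobp RNA was 1389 against 21.5. In astrocytes Ptprg held 81.2 ± 14.7 against 3.84, Mlc1 61.0 ± 32.4 against 1.97, Zfhx3 46.0 ± 12.6 against 1.83 and Slc39a12 21.8 ± 11.1 against 0.841. Slc39a12 was at 0 in microglia, oligodendrocytes and precursors.

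In microglia AY512915 held 75.9 ± 17.3 against 0.840, Osbpl3 69.3 ± 23.2 against 2.06, Gngt2 59.5 ± 29.0 against 1.35 and Nckap1l, a blood cell actin regulator, 53.2 ± 18.0 against 1.35. In precursors Ptpre held 64.2 ± 15.5 against 3.06, Gjc3 42.7 ± 14.0 against 5.96, Vwc2 29.9 ± 8.42 against 3.87 and Mc4r, the melanocortin receptor gene, 13.3 ± 2.26 against 0.65. Mc4r RNA was 0.22 CPM of UMIs in precursors, so this promoter was open with little RNA counted. In both neuron classes Kalrn, Celf2 and Mtus2 were among the leaders, with the same intragenic regions. Kalrn, a synaptic exchange factor gene, held 38.4 ± 1.94 in excitatory and 21.4 ± 1.55 in inhibitory neurons. Celf2 held 24.7 ± 1.42 and 13.6 ± 0.712, and Mtus2 22.8 ± 1.34 and 16.5 ± 2.85. With each nucleus put in the class of its highest marker score the calls of Kalrn, Celf2 and Mtus2 were lost in both neuron classes, and the fold of Kalrn in inhibitory neurons turned to -0.19.

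Many synaptic gene promoters were called higher in neurons and in the vascular class, and many were at or near 0 in microglia. Of 78 start-site regions of glutamatergic synapse genes 52 passed the count filter, and 43 of the 78 were called higher in excitatory neurons, 42 in inhibitory neurons, 40 in the vascular class (beside 34.8% of all regions tested), 28 in precursors, 8 in oligodendrocytes and 7 in astrocytes. Over all 23622 start-site regions the shares called in that order were 10.3%, 11.1%, 9.55%, 9.81%, 6.16% and 6.21%. A region near 0 in glia passes the filter only through the classes where it is high, so the counts are a description. Grin2a, an NMDA receptor subunit, held 28.1 ± 1.87 in excitatory and 23.0 ± 3.41 in inhibitory neurons and at most 1.31 in the glial classes. Gria1, an AMPA receptor subunit, held 22.8, 21.8, 7.02, 0, 0.447 and 4.65 in the order of classes. The kainate receptor gene Grik1 went another way, with 2.00 ± 0.0949 in excitatory neurons, 10.0 ± 0.432 in inhibitory neurons, 12.4 ± 4.61 in oligodendrocytes and 16.4 ± 3.78 in precursors. Dlg2 was open in all 6 classes, between 47.8 and 101. Of 138 start-site regions of potassium channel genes 89 passed the filter, and 54 were called higher in excitatory neurons, 59 in inhibitory neurons, 52 in the vascular class and 46 in precursors, beside the same shares of all start-site regions.

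Immediate early genes differed among themselves. Of their 37 start-site regions, of which 31 passed the filter, 9 were called higher in excitatory neurons, 9 in inhibitory neurons, 7 in the vascular class, 3 in precursors, 2 in oligodendrocytes and 1 in astrocytes, beside the same shares. The promoters of Npas4, Egr4, Bdnf and Egr3, factors and a growth factor induced by neuronal activity, were called higher in both neuron classes. Npas4 held 36.5 ± 2.67 and 40.0 ± 3.29 there and at most 3.08 in the glial classes. Bdnf held 42.7 ± 3.11 and 25.8 ± 4.02 and was at 0 in microglia. Fos, Jun and Egr1 were open in all 6 classes: Fos held 23.2 in excitatory and 71.0 in astrocytes, Jun 72.4 and 119, and Egr1 79.9 and 91.0. Arc held 49.5 ± 1.82 in excitatory neurons and 96.1 ± 13.3 in oligodendrocytes, where it was called higher. The tested regions of oxidative phosphorylation genes (24 of 25) and of ribosomal protein genes (26 of 27) had median log2 folds between -0.25 and 0.40 in the 6 classes.

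Among endocannabinoid genes the promoter of Mgll was open in all 6 classes, at 30.6 ± 1.42 in excitatory neurons, 28.5 ± 1.71 in inhibitory neurons, 49.3 ± 13.3 in astrocytes, 35.6 ± 6.78 in microglia, 19.2 ± 4.26 in oligodendrocytes and 58.3 ± 12.1 in precursors. It was called higher in none of them. Cnr1, the receptor of neurons, was called higher in inhibitory neurons (19.7 ± 2.85), astrocytes (25.4 ± 13.3) and precursors (39.5 ± 7.56) and held 0.652 in microglia. Ptgs1, a cyclooxygenase gene, held 46.7 ± 19.7 in microglia and at most 9.03 elsewhere. Its relative Ptgs2 held 14.1 ± 1.43 in excitatory and 10.7 ± 1.44 in inhibitory neurons. Naaa, which degrades N-acylethanolamines, held 55.4 ± 10.1 in astrocytes and 4.84 ± 4.56 in precursors, and Plcb1 59.2 ± 15.8 in astrocytes, 63.8 ± 8.46 in precursors and 1.95 in microglia.

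In microglia 15 of 24 start-site regions of homeostatic genes were called higher, 9 of 28 of disease-associated genes and 8 of 17 of interferon response genes, beside 5.20% of all 23622 start-site regions. From the 3 lists 17, 15 and 12 regions passed the count filter, which a region open mainly in this class passes only where it is high, so the counts are a description. Sall1 held 116 ± 26.1 in microglia and 107 ± 23.4 in astrocytes. Cd68, a lysosomal gene, held 97.8 ± 22.3 in microglia and at most 8.18 elsewhere. Apoe, a lipid carrier gene, went against its list, with 85.6 ± 25.1 in astrocytes and 35.6 ± 17.5 in microglia. H2-K1 and Bst2 held 91.8 ± 17.6 and 54.8 ± 13 in microglia. These values rest on 43 to 122 microglia per library.

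Few start-site regions were called between the neuron classes as named here. In a direct contrast of excitatory with inhibitory neurons by the same test, 60 of 14992 start-site regions (0.4%) were higher in excitatory and 337 (2.25%) in inhibitory neurons, beside 3.93% and 4.45% of all regions. Among the markers, Gad2 and Slc32a1 were called (log2 differences of -2.85 and -3.23, excitatory minus inhibitory), and Slc17a7 at 0.76, Tbr1 at 0.74 and C1ql2 at 0.94 stayed under the fold of 1. Other excitatory markers also held cut sites in the inhibitory class: Neurod6 10.7 and 7.91 in excitatory and inhibitory neurons, Camk2a 41.2 and 33.8, Nrgn 28.6 and 20.4, and Rasgrf2 14.2 and 17.4. How pure the 2 classes were was not tested. Oligodendrocytes and precursors differed more, with 700 regions (4.67%) higher in oligodendrocytes and 3041 (20.3%) in precursors, beside 9.19% and 24.6% of all regions. Ermn (log2 difference 5.5, SE 0.43), Mobp (4.64, SE 0.32) and Mog (3.77, SE 0.33) were higher in oligodendrocytes, and Vcan (-3.14, SE 0.42) and C1ql1 (-3.01, SE 0.27) in precursors. Olig1, a lineage factor, held 75.7 and 62.5 and was not called.

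RNA and promoter calls were set side by side in both directions. Of genes with RNA at least 4 times higher in a class than over the other classes and at least 20 CPM of UMIs, a start-site region was called higher there for 45 of 59 in excitatory neurons, 71 of 121 in inhibitory neurons, 296 of 531 in astrocytes, 409 of 1074 in microglia, 294 of 432 in oligodendrocytes and 163 of 244 in precursors. Of these 50, 82, 435, 796, 387 and 211 genes had a region that passed the count filter. Over all genes with such a region the shares called were 8.15% to 14.8%. In the other direction, 1721, 1841, 1087, 1014, 1122 and 1769 genes had a start-site region called higher, in the same order of classes. Of these, 2.61%, 3.86%, 27.2%, 40.3%, 26.2% and 9.21% had such RNA. Only 59 and 121 genes had such RNA in the neuron classes, so the sizes of the lists kept these shares low there. The RNA also set the classes, so these shares are a description with no test.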

How the data were processed

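Nuclei of 5 libraries were read for RNA and accessible DNA. Per the submitters' processing notes the authors used Cell Ranger ARC 2.0.0 and Seurat with the mm10 build. The deposited matrices hold raw counts of UMIs per gene and of cut sites per peak, with peaks called separately in each library. Rows without a gene position (13) were left out.

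Peaks were merged with a minimum overlap of 1 bp and assigned by position widened by 1 kb. Regions were also compared with annotated 5′ ends of GENCODE vM21. Nuclei needed 500 genes or more and no more than 5% of UMIs from mitochondria, and the top 0.8% of nuclei per 1000 by Scrublet score were removed as doublets. Nuclei were clustered on RNA in scanpy 1.11.5 (2000 variable genes, 40 components, 15 neighbours, Leiden resolution 1) and named from marker genes, so class names are rebuilt and shares may differ from the study's. Heights are CPM (cut sites scaled to a common total) over the nuclei used. Shares of cut sites are over all barcodes.

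Counts summed per library and class were tested with edgeR 4.0.16 (quasi-likelihood, TMM, filterByExpr, library as block) in R 4.3.3. Simulated microglia counts over 14735 regions gave 57 of 82 changed regions at 2-fold and 91 of 91 at 4-fold, with 2 other regions called. Libraries were compared by log2 ratios with a pseudocount of 5, at least 100 cut sites over both, a ratio of covered lengths up to 1.25 and the region listed in both, without a test. The p-values between classes measure the spread between libraries, and nothing in the labels says how many animals each holds. Depth was 83726719 to 105867030 cut sites per library. Cut sites are not independent molecules, so intervals cover counting error only.

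Named were genes of the lists and markers, the 4 largest folds per class, the 2 highest and 2 lowest ratios per comparison, the 5 tallest regions, and the 5 genes at each extreme of RNA without region or region without RNA. Values of a few single genes of these lists are not reported here. The members and lists were chosen with earlier results of these data known. Alternatives were scaling (median-of-ratios, DESeq2 1.42.0), filters, widening, overlap, pseudocount, class assignment, the block and leaving out each library. Sequence windows of 300 bases are RefSeq's (GRCm38.p6), of which 20268 gene features matched by symbol.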

Additional observations from a re-analysis of the deposited data

Results flagged for a closer look

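A signal stood outside the promoter regions, in regions that the comparisons above count only among all regions or regions outside the rule. The region chr9:44048566-44049427, beyond the widened position of Thy1, held 15.4 CPM in the Wild type library and 435 in the 5xFAD library. Under the astrocyte, neuron and global knockout labels it held 542, 559 and 548, so the 4 libraries with the transgenes stood at 28.3 to 36.3 times Wild type. A region close by (chr9:44047273-44047984) was listed in these 4 libraries only, at 46.5, 72.9, 81.1 and 59.9 CPM. Cut sites from transgene copies, where these carry this stretch, and from the mouse Thy1 locus cannot be told apart here either. There was 1 library per group, and the difference was not tested.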

How the results depend on the processing

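The members depended on how they were drawn. Without widening, 54.4% of gene features had a region, 69.7% of regions were listed in all 5 libraries and they held a mean of 43.0% of cut sites, and with 2 kb the values were 68.0%, 67.1% and 48.2%. An overlap of 100 bp gave 63.0% of gene features. With peaks of at least 5 CPM only there were 20048 regions, with 49.0%, 84.0% and 41.7%. Restricting members to 1 kb of an annotated 5′ end, an alternative chosen after seeing the data, left 23622 regions, 79.6% and 40.5%. The correlation with RNA, 0.453 as a mean, was 0.312, 0.386 with the tallest region and 0.403 near 5′ ends. Without the count filter 13454, 13451 and 3292 members were higher in excitatory neurons, inhibitory neurons and oligodendrocytes (46.4%, 46.4% and 11.3%, beside 71.5%, 70.6% and 8.76% of all regions). With the highest marker score the counts were 1366, 1166, 831, 7409 and 1533 in excitatory neurons, inhibitory neurons, astrocytes, oligodendrocytes and precursors, beside the shares of all regions given above. Near 5′ ends they were 2439 and 2631 in the neuron classes. These were 10.3% and 11.1% of all 23622 such regions, beside 6.96% and 7.08% of all 220645 regions. Leaving out 1 library gave 3731 to 4302, 3886 to 4210, 1700 to 1929, 1462 to 1615, 1772 to 2063 and 2685 to 2952 in the order of classes. The shares of all regions in these fits are not given, so the ranges do not compare members with other regions.

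Past the fold in excitatory neurons were 353, 621, 927 and 613 members with a pseudocount of 1, and 18, 42 and 57 (5xFAD, astrocyte and global labels) without the length limit. Against Wild type 5 passed with the highest marker score (beside 0.0142% of all regions) and 4 over all nuclei, and 39 for the neuron label over all nuclei. Near 5′ ends 4, 16, 33 and 23 passed, beside 0.014%, 0.144%, 0.312% and 0.152% of all regions. Without cluster n12, chosen after seeing the data, 33 and 22 passed for the neuron and global labels. Reversed were Kalrn in inhibitory neurons (-0.19) and Sema5a (-0.14) with the highest marker score. Glis3 in excitatory neurons, not called at -0.21, was 0.067 with median-of-ratios factors, 0.068 with DESeq2, 0.019 with the highest marker score, -0.32 to 0.10 with 1 library left out (0.10 without 5xFAD) and 0.064 without the vascular class, chosen after seeing the data. Of 704 values of 63 regions named by class 665 kept direction and call and 32 lost the call, and of 128 values of 16 regions named by library 111 moved little and 0 reversed. The causes were not tested.

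With no replicate block for the library, 3796, 3978, 1919, 1522, 1963 and 2891 members were higher in the order of classes, each within 1.5 times the count with the block. The shares of all regions without the block are not given, so these counts do not compare members with other regions. The library block pairs the classes within each library. Between genotypes no paired analysis was possible because each genotype had 1 library. Microglia and astrocytes, with few nuclei, limit what depth can show.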
